A study of Mus musculus with 6 samples.

Results

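The genes described here encode the CD8 coreceptor (Cd8a, Cd8b1), the signalling chains of the T cell receptor (Cd3d, Cd3e, Cd3g, Cd247), the kinases that act first on it (Lck, Zap70) and a pair of related surface receptors that adjust its signal (Cd5, Cd6). They were chosen by name, 10 genes of the 26181 Ensembl IDs in the deposited table, and all 10 were found and passed the filter on low values, so that the 10 are among the 15819 genes tested. Their RNA was measured by RNA sequencing in primary CD8+ T cells taken from spleens of C57BL/6 mice of WT genotype, which were 6 weeks old when they were put on either ND or CDAHFD for 7 weeks. The labels do not spell out either diet; CDAHFD usually stands for a high-fat diet without choline whose protein is replaced by defined amino acids, and the labels call the animals a model of MASH, metabolic dysfunction-associated steatohepatitis. Each diet had 3 libraries, and no other genotype, treatment or cell type entered the comparison. The sources used here do not say how the CD8+ T cells were isolated or how pure they were, and the labels name both a whole-RNA and an mRNA library kit without saying which was used where. Whether each library came from its own animal is not stated, so a p-value here speaks only of the spread among the libraries, and that spread may be technical.

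The T cell receptor itself has hardly any cytoplasmic part, and it signals through the CD3 gamma, delta and epsilon chains and the zeta chain encoded by Cd247, which carry tyrosine motifs in their tails. When the receptor binds a peptide on MHC class I, the CD8 coreceptor binds the same MHC molecule and brings along the kinase Lck, which phosphorylates those motifs. The kinase Zap70 then docks on the phosphorylated tails, is activated by Lck and passes the signal to adaptor proteins. CD5 and CD6 sit beside the receptor, and CD5 is known above all as a brake whose amount is set by the strength of receptor signalling.

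RNA of 9 of the 10 genes fell in CDAHFD libraries, by 10 to 28 percent, and Cd3e was the exception. Cd5 stood lowest relative to ND, at 71.8% of the ND mean, followed by Cd3g at 72.5%, Cd8b1 at 75.0%, Cd3d at 75.4%, Cd6 at 77.3% and Cd247 at 81.4%. Cd8a stood at 84.8%, Lck at 86.1% and Zap70 at 89.6%, whereas Cd3e stood at 94.1% and did not pass the test. The call was made with limma at a Benjamini-Hochberg adjusted p under 0.05 over all genes tested, on log2(normalised count + 1), a scale that understates changes of low genes. Of all genes tested, 47.1% were called in either direction and 22.5% were called lower, so calls were common in this comparison. The median log2 fold change was -0.33 over the 10 genes and -0.01 over all genes tested. By edgeR (adjusted p under 0.05; 47.3% of all genes called, 22.8% lower and 24.5% higher) and by DESeq2 (42.7%, 19.6% lower and 23.1% higher) 9 of the 10 were called lower and 0 higher. At an unadjusted p under 0.05, which 52.7% of all genes passed in limma, 10 of the 10 were lower in limma and in edgeR, 9 in DESeq2, and 0 were higher in any of these tools. The 9 genes that fell also had diets that did not overlap, as did 54.3% of all tested genes in either direction and 26.5% in the downward direction. Scaling the libraries to the sum of 8 pan T cell surface genes was tried after seeing the data. Of these 8, 5 were themselves called lower, 1 (Cd28) higher and 2 not called. Thy1, not called, was the largest part, with 22284 normalised counts in ND of a sum of 47124 to 49095. This scaling left 8 of the 10 called, with log2 fold changes of -0.39 for Cd5, -0.15 for Cd8a and -0.12 for Lck. Under it Zap70 (-0.07, adjusted p = 0.232) lost its call and Cd3e was at 0.0041 (adjusted p = 0.952). In a bulk preparation, fewer T cells and less of these RNAs per T cell cannot be told apart.

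**Figure D1:**
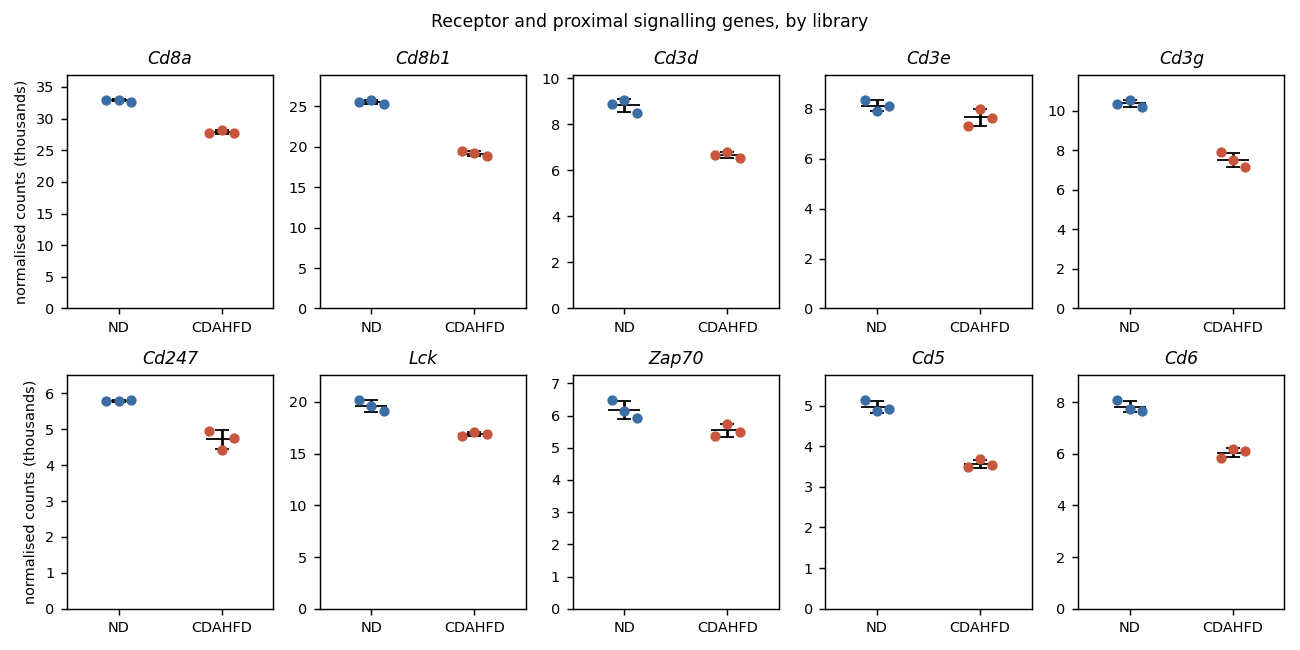
Normalised counts (axis unit 1000) of the 10 genes in each library, ND in blue and CDAHFD in red. The black lines give the mean and SD of 3 libraries, every axis starts at 0, and in 9 panels the red points lie below all blue points, while those of Cd3e overlap.

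The labels were checked against marker genes, with the values in the plot of summed marker levels. The coreceptor genes Cd8a and Cd8b1 together took 0.221% to 0.223% of all assigned reads in ND and 0.175% to 0.178% in CDAHFD libraries, and Cd4 was low, at 620 ± 82.2 and 499 ± 21.6 normalised counts (here and below, ± gives the SD, n = 3). Markers of other spleen cells were present in both diets, and none of the 11 lists had a marker at 0 in all libraries. The 12 macrophage markers summed to 15114 to 16475 normalised counts in ND and 130592 to 143315 in CDAHFD libraries, and 12 of 12 rose, with the most abundant, Vcam1, going from 3402 to 47155 and Csf1r from 3327 to 27030.4. Erythroid markers rose in 8 of 8 cases (sum 903 to 943 against 9017 to 9295), plasma cell markers in 4 of 5 tested (sum 2844 to 3015 against 10399.7 to 11282) and neutrophil markers in 6 of 8 (2526 to 2573 against 6425 to 7437). B cell markers fell in 7 of 8 cases and rose in 1 (sum 22993 to 24000.5 against 18008 to 18907). Conventional dendritic cell markers fell in 6 of 8 cases (sum 8212 to 8708 against 6420 to 7097), and plasmacytoid dendritic cell markers fell in 4 of 7 and rose in 1 (9013 to 9401 against 6654 to 6756). Of 9 NK cell markers 5 rose (sum of all 9089 to 9313 against 14519 to 14729), namely Nkg7, Eomes, Klrk1, Tyrobp and Fcer1g. The other 4, Ncr1, Klrb1c, Klra8 and Klri2, were not called (log2 fold changes -0.52, 0.13, 0.47 and -0.19). Nkg7 was the most abundant of the list, with 4720 normalised counts in ND and 5786 in CDAHFD libraries. Among 7 CD4 and regulatory T cell markers 4 rose and 2 fell (2718 to 2955 against 2841 to 2929.7). Of 6 tested gamma delta T cell markers 2 rose and 1 fell (485 to 544 against 1388 to 1462). Of 6 tested endothelial and stromal markers 2 rose and 1 fell (4921 to 5063 against 7674 to 7977), with a median log2 fold change of -0.45. Stab2 (270 to 2461) and Pecam1 (4513 to 5297) rose and Kdr fell (114 to 31.0). Whether T cells, or cells of another list, also transcribe listed genes such as Nkg7, Eomes, Klrk1, Tyrobp, Fcer1g or Ccr9 was not tested. The sums are therefore no measure of the number of other cells. The part of these cells in the results for the 10 genes was not tested.

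**Figure D2:**
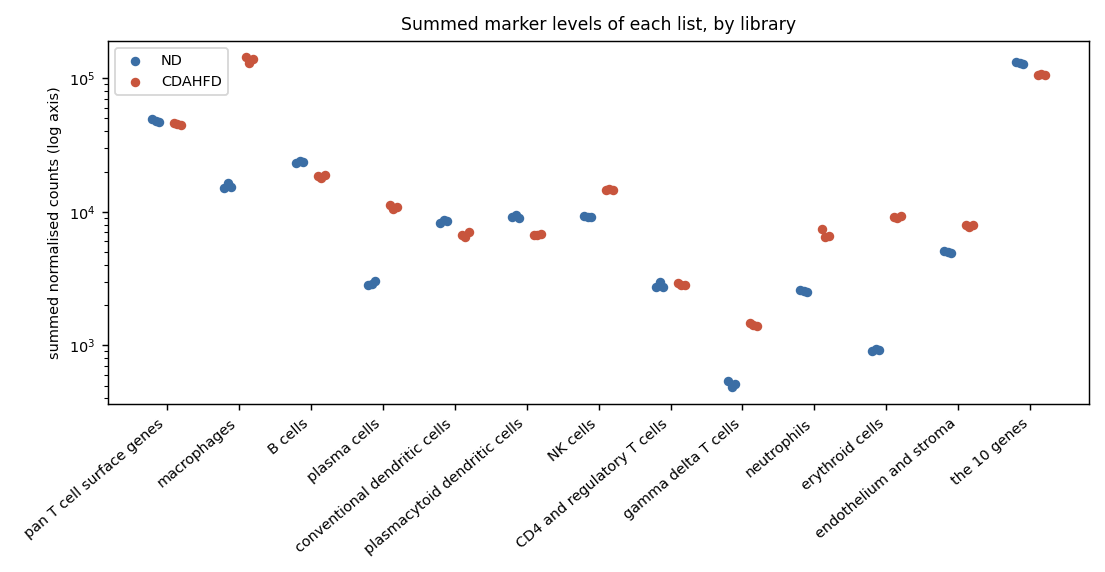
Summed normalised counts of each marker list and of the 10 genes, on a log axis, with 1 point per library, ND in blue and CDAHFD in red. The macrophage sum was 15114 to 16475 in ND and 130592 to 143315 in CDAHFD libraries, while the 10 genes summed to 128286 to 131807 and 104715 to 106799.

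Cd8a and Cd8b1 encode the alpha and beta chains of the coreceptor, of which the alpha chain binds Lck. Cd8a (ENSMUSG00000053977, chromosome 6, 71373427 to 71379173 in mm10, plus strand) had 32988, 32995 and 32684 normalised counts in ND replicates 1 to 3 and 27782, 28177 and 27699 in CDAHFD replicates 1 to 3. The libraries of a diet lay within 2 percent of each other, and the lowest ND library was well above the highest CDAHFD library. For Cd8a the log2 fold change was -0.24 (SE 0.04, 95% interval -0.31 to -0.17, limma adjusted p = 2.36e-06). Cd8b1 (ENSMUSG00000053044, 71322788 to 71337494 on the same strand, 35932 bases before Cd8a) had 25518, 25819 and 25316 normalised counts in ND and 19424, 19182 and 18847 in CDAHFD libraries. Its log2 fold change was -0.42 (SE 0.04, 95% interval -0.49 to -0.34, adjusted p = 1.08e-10), again with no overlap of the diets.

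The beta chain stood lower relative to the alpha chain in every CDAHFD library. Within a library the log2 difference of Cd8b1 from Cd8a was -0.37, -0.35 and -0.37 in ND and -0.52, -0.55 and -0.56 in CDAHFD libraries. Every CDAHFD library was thus below every ND library, by a mean of -0.18, which is a ratio of 0.884 relative to ND. Such a difference within a library does not depend on how libraries are scaled to each other. A two-sided exact permutation test of the diet labels gave p = 0.1, the smallest that 20 regroupings of 3 against 3 allow (adjusted p = 0.125 over the 5 planned differences). A class of conventional dendritic cells is known to transcribe Cd8a without Cd8b1, and the 8 dendritic cell markers had a median log2 fold change of -0.58. Xcr1 and Clec9a, markers of that class in the list, fell from 1426 ± 98.2 to 844 ± 69.5 and from 1708 ± 78.1 to 1149.5 ± 72.8 normalised counts (log2 fold changes -0.76 and -0.57). Batf3, also a marker of that class, did not fall, with 210 ± 14.0 in ND and 233 ± 35.6 in CDAHFD libraries. Its diets overlapped (log2 fold change 0.14, limma adjusted p = 0.344). Xcr1, Clec9a and Batf3 were named after their values were seen. Of the most abundant markers, Flt3 fell from 1755 ± 40.6 to 1162 ± 36.1, and Itgax, which many myeloid cells share, had 2704 ± 50 in ND and 2878 ± 144 in CDAHFD libraries (limma adjusted p = 0.109). RNA of such dendritic cells counts toward Cd8a and not toward Cd8b1. Their part in the ratio of Cd8b1 to Cd8a, which was lower in CDAHFD libraries, was not tested.

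Cd3g, Cd3d and Cd3e, the genes of the CD3 gamma, delta and epsilon chains, lie side by side within 40056 bases of chromosome 9. Cd3g (44969572 to 44980431, minus strand) and Cd3d (44981786 to 44987339, plus strand) point away from each other with 1354 bases between them, and Cd3e (44998740 to 45009627, minus strand) follows after 11400 bases. Cd3g and Cd3d fell alike and Cd3e did not pass the test, so the 250 bases before the start of each are shown, with those of Cd5, the gene with the largest fall. They are from RefSeq on GRCm38.p6, the build also called mm10, at chr9:44980432-44980681 on the minus strand for Cd3g, chr9:44981536-44981785 on the plus strand for Cd3d, chr9:45009612-45009861 on the minus strand for Cd3e and chr19:10738975-10739224 on the minus strand for Cd5. The starts are those of RefSeq, whereas gene positions in the text are from GENCODE M21. By the GENCODE positions, the windows of Cd3e and Cd5 reach into the gene. Capitals mark matches, on either strand, to short motifs of factors known to act in T cells. RUNX factors were searched for with the letters TGTGGT. For ETS factors the letters searched were CGGAAG. The motif of GATA factors was given as AGATAA. For TCF and LEF factors the motif searched was CTTTGA. The E-box bound by E-proteins was searched for as CAGGTG.
Cd3g upstream window: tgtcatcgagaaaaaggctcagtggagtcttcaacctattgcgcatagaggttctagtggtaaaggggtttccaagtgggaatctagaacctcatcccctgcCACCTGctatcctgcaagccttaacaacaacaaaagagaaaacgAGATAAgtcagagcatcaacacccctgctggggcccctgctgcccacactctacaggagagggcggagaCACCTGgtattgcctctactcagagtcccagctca
Cd3d upstream window: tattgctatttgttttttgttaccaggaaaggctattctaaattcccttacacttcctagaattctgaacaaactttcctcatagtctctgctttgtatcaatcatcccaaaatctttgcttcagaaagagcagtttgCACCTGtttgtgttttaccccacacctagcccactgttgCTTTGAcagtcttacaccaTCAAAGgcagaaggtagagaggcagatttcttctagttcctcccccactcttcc
Cd3e upstream window: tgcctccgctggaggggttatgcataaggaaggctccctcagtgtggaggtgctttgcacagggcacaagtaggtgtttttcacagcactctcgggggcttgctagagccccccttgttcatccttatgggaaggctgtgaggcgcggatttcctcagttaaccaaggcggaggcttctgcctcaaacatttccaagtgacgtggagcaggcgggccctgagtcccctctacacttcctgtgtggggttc
Cd5 upstream window: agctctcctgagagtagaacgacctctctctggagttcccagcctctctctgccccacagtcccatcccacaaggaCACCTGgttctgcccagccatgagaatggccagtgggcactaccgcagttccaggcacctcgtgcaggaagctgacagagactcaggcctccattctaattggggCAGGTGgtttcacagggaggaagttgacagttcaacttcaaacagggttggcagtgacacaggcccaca
None of the 5 strings of letters searched was found in the Cd3e window, nor in that of Cd8a, which fell. Only these exact letters were searched, so a site spelled otherwise, of ETS factors for example, would be missed. The Cd3g window held CACCTG at 2 places and AGATAA at 1, and the Cd3d window held CACCTG at 1 place and the TCF and LEF motif at 2. The Cd5 window held the E-box at 2 places, 174 and 69 bases before the start. Among the 32536 windows of this length in the table, 17.3% held the E-box motif, 13.9% the TCF and LEF motif, 14.0% the RUNX motif, 13.7% the ETS motif and 9.97% the GATA motif. Windows were found for 8 of the 10 genes, all but Cd8b1 and Cd6, with several starts for Zap70 and Lck, and those of Zap70, Lck and Cd247 each held the E-box in at least 1 window. The RUNX motif also matched in a window of Zap70 and in a window of Lck, and the TCF and LEF motif in a window of Zap70. A match is a stretch of letters and not a measured binding site, and a window without a match may hold a site with other letters.

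Cd3g (ENSMUSG00000002033) had 10344, 10571 and 10212 normalised counts in ND and 7895, 7519 and 7163 in CDAHFD libraries. Its log2 fold change was -0.46 (SE 0.04, 95% interval -0.55 to -0.38, limma adjusted p = 1.19e-10), and the diets were far apart. Cd3d (ENSMUSG00000032094) had 8909, 9082 and 8520.2 in ND and 6653, 6802 and 6534 in CDAHFD libraries. Cd3d had a log2 fold change of -0.41 (SE 0.04, 95% interval -0.49 to -0.33, adjusted p = 9.11e-10), again without overlap. Cd3e (ENSMUSG00000032093) had 8362, 7896 and 8115 in ND and 7301, 7996 and 7640.2 in CDAHFD libraries. CDAHFD replicate 2 lay above ND replicate 2, so the diets overlapped. The log2 fold change of Cd3e was -0.09 (SE 0.04, 95% interval -0.17 to -0.0039, adjusted p = 0.0801). Cd3e passed the threshold when libraries were scaled to equal totals (adjusted p = 0.0341) and without CDAHFD replicate 2 (log2 fold change -0.12, adjusted p = 0.0373). An antisense gene lies over Cd3e, Gm48719, with 198 normalised counts in ND and 157 in CDAHFD libraries, and without a stated strand setting its reads cannot be told from those of Cd3e.

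Cd3e stood apart from its neighbours within each library too, a difference looked for after the values were seen. The log2 difference of Cd3e from the mean of Cd3d and Cd3g was -0.20, -0.31 and -0.20 in ND and 0.01, 0.16 and 0.16 in CDAHFD libraries. It was higher in each CDAHFD library than in any ND library, by a mean of 0.35 or 1.27-fold (two-sided exact permutation p = 0.1, the smallest possible). Leaving out each library in turn gave differences from 0.31 to 0.40.

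Cd247 (ENSMUSG00000005763, chromosome 1, 165788681 to 165877277, plus strand) encodes the zeta chain, which joins the complex last and carries more tyrosine motifs than the CD3 chains. It had 5781, 5782 and 5819 normalised counts in ND and 4952, 4434 and 4764 in CDAHFD libraries. The ND libraries agreed to within 1 percent, closer than counting error alone would make usual (1.46% at the lowest count of Cd247). The CDAHFD libraries were spread more widely, all of them below ND. For Cd247 the log2 fold change was -0.30 (SE 0.04, 95% interval -0.39 to -0.21, limma adjusted p = 1.07e-06). Relative to the mean of the 3 CD3 chains, Cd247 was at -0.67, -0.66 and -0.61 on the log2 scale in ND and at -0.55, -0.74 and -0.57 in CDAHFD libraries. These values overlapped and the mean difference was 0.02 (two-sided exact permutation p = 0.8). That mean joins chains on either side of Cd247, which had a smaller fall than Cd3d and Cd3g and a larger one than Cd3e. Relative to Cd3d and Cd3g alone, compared after seeing the data, Cd247 was higher in CDAHFD libraries by a mean of 0.14, with overlap of the diets (two-sided exact permutation p = 0.2). Pou2f1 overlaps Cd247 on the opposite strand, with 2205 normalised counts in ND and 1914 in CDAHFD libraries, so reads in the overlap cannot be told apart without strand.

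**Figure D3:**
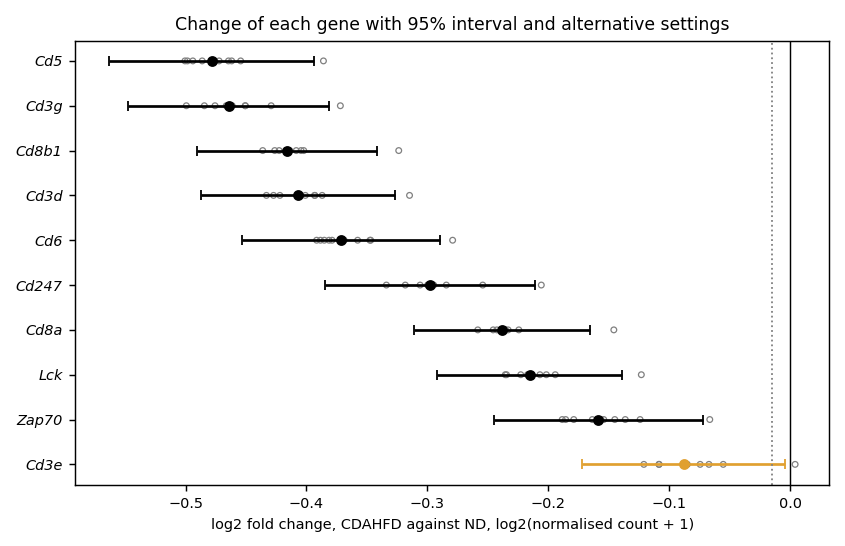
Log2 fold change of each gene, CDAHFD against ND, with its 95% interval from limma; black marks genes called lower and orange Cd3e, which was not called. Open grey circles are the alternative settings, the rightmost of each gene being the scaling to pan T cell surface genes, and the dotted line is the median of all tested genes, -0.01.

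The kinases changed least among the genes that fell. Lck (ENSMUSG00000000409, chromosome 4, 129548344 to 129573641, minus strand), the Src-family kinase that coreceptors carry to the receptor, had 20189, 19557 and 19091 normalised counts in ND and 16692, 17063 and 16911 in CDAHFD libraries. Lck had a log2 fold change of -0.22 (SE 0.04, 95% interval -0.29 to -0.14, limma adjusted p = 2.04e-05), with no overlap. Zap70 (ENSMUSG00000026117, chromosome 1, 36761798 to 36782818, plus strand), which binds the phosphorylated CD3 and zeta tails, had 6486, 6141 and 5932 in ND and 5369, 5749 and 5503 in CDAHFD libraries. The diets did not overlap, but ND replicate 3 and CDAHFD replicate 2 lay close together. The log2 fold change of Zap70 was -0.16 (SE 0.04, 95% interval -0.25 to -0.07, adjusted p = 0.00264). Zap70 missed the threshold in limma without trend and robust estimation (adjusted p = 0.0702). Within a library the log2 difference of Zap70 from Lck was -1.64, -1.67 and -1.69 in ND and -1.64, -1.57 and -1.62 in CDAHFD libraries. The gap between the kinases was smaller by 0.06 in CDAHFD libraries, with the diets barely separated (two-sided exact permutation p = 0.1, adjusted p = 0.125).

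Cd5 and Cd6 lie 50338 bases apart on the minus strand of chromosome 19 and encode scavenger-receptor-type membrane proteins. Cd5 (ENSMUSG00000024669, 10717116 to 10739002) had 5141, 4866 and 4919 normalised counts in ND and 3490.1, 3682 and 3541 in CDAHFD libraries. The log2 fold change of Cd5 was -0.48 (SE 0.04, 95% interval -0.56 to -0.39, limma adjusted p = 9.13e-11), and every CDAHFD library was more than 1000 below every ND library. Cd6 (ENSMUSG00000024670, 10789341 to 10830058), whose product also binds the adhesion molecule ALCAM, had 8089.7, 7719 and 7677 in ND and 5848, 6195 and 6113 in CDAHFD libraries. For Cd6 the log2 fold change was -0.37 (SE 0.04, 95% interval -0.45 to -0.29, adjusted p = 7.25e-09), again with no overlap.

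Cd5 stood lower relative to Cd6 in every CDAHFD library, while its place relative to the CD3 chains depended on Cd3e. The log2 difference of Cd5 from Cd6 was -0.65, -0.67 and -0.64 in ND and -0.74, -0.75 and -0.79 in CDAHFD libraries, a mean change of -0.11. Relative to the mean of the 3 CD3 chains, Cd5 was at -0.83, -0.91 and -0.86 in ND and at -1.06, -1.01 and -1.003 in CDAHFD libraries, a mean change of -0.16. In both cases the CDAHFD libraries lay below all ND libraries (two-sided exact permutation p = 0.1 for each, adjusted p = 0.125). With Cd3e left out of the mean, a choice made after seeing the data, Cd5 was at -0.90, -1.01 and -0.92 in ND and at -1.05, -0.96 and -0.95 in CDAHFD libraries. The diets then overlapped and the mean change was -0.04 (two-sided exact permutation p = 0.5).

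**Figure D4:**
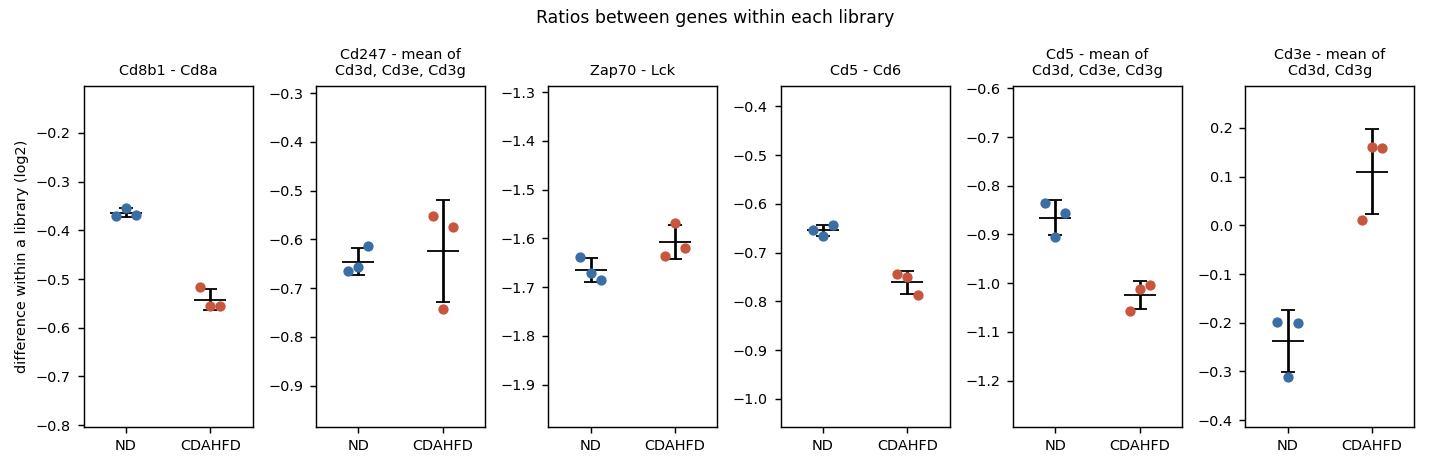
Log2 difference between genes within each library, ND in blue and CDAHFD in red, with the mean and SD of 3 libraries; every panel spans the same range of 0.7 around its own mean. The diets separated in 5 of 6 panels and overlapped for Cd247 against the CD3 chains.

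Ordered by level per length, that is normalised counts per kilobase of annotated exon, the genes kept nearly the same places in both diets. In ND libraries Cd8b1 was highest with 17229 ± 170, followed by Cd8a with 9043 ± 48.8, Lck with 6696 ± 188, Cd3d with 4869 ± 159 and Cd3g with 3174 ± 55.6 per kilobase (SD, n = 3). Zap70 (2068 ± 93.6) and Cd3e (1991 ± 57.1) came next and overlapped, as did Cd5 (1009.6 ± 29.5) and Cd6 (983 ± 28.5) at the low end, just under Cd247 (1087 ± 4.12). In CDAHFD libraries Cd8b1 stood at 12914 ± 195, Cd8a at 7667 ± 70.3 and Lck at 5766 ± 63.6. Only the overlapping neighbours changed places: Cd3e (1874 ± 85.2) with Zap70 (1852 ± 64.4), and Cd6 (760 ± 22.8) with Cd5 (725 ± 20.2). Cd8b1 ranked 57th and Cd8a 115th of all tested genes on this scale, and the lowest member, Cd5, ranked 1510th. Lengths are the union of annotated exons, so a gene whose T cell transcript is much shorter than its annotated exons is placed too low.

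The spread between libraries was small for all 10 genes. The coefficient of variation ran from 0.379% (Cd247) to 4.52% (Zap70) in ND and from 0.916% (Cd8a) to 5.56% (Cd247) in CDAHFD libraries. Reads per gene and library ranged from 3301 for Cd5 to 34667 for Cd8a, and counting error alone gives 1.74% and 0.617% at the lowest counts of these genes. For Cd247 it gives 1.46% at the lowest count, so the 0.379% in ND lies below counting error. Libraries held 25314988 to 28067393 assigned reads. The 10 genes took 0.490% to 0.499% of all assigned reads in ND and 0.390% to 0.402% in CDAHFD libraries.

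The other genes of the receptor pathway did not all go the way of the 10, as the plot by role shows. Over 5 lists with 60 genes tested, 25 were lower, 18 higher and 17 not called, with a median log2 fold change of -0.06, beside 22.5% called lower and 24.6% called higher among all genes. The receptor constant regions and Cd4 were the one list in which all 4 members fell. Trbc1 went from 8825 ± 347 to 6328 ± 68.9 normalised counts (log2 fold change -0.48, limma adjusted p = 3.66e-11) and Trac, the alpha chain constant region, from 10969 ± 243 to 8908 ± 436 (-0.30). Trbc2 fell by 0.47 on the log2 scale, close to the threshold (adjusted p = 0.0487), and lost its call without ND replicate 1, 2 or 3 or CDAHFD replicate 1 (adjusted p = 0.117, 0.12, 0.0555 and 0.11), with no filter (0.0759) and under trimmed mean of M-values scaling (0.0524). Trbc1 and Trbc2 are near-identical copies, so the split of reads between them is uncertain. Cd4 was called lower, but not without ND replicate 2 (adjusted p = 0.055) or in limma without trend and robust estimation (adjusted p = 0.0695), and without that library 2 of the 4 were called.

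**Figure D5:**
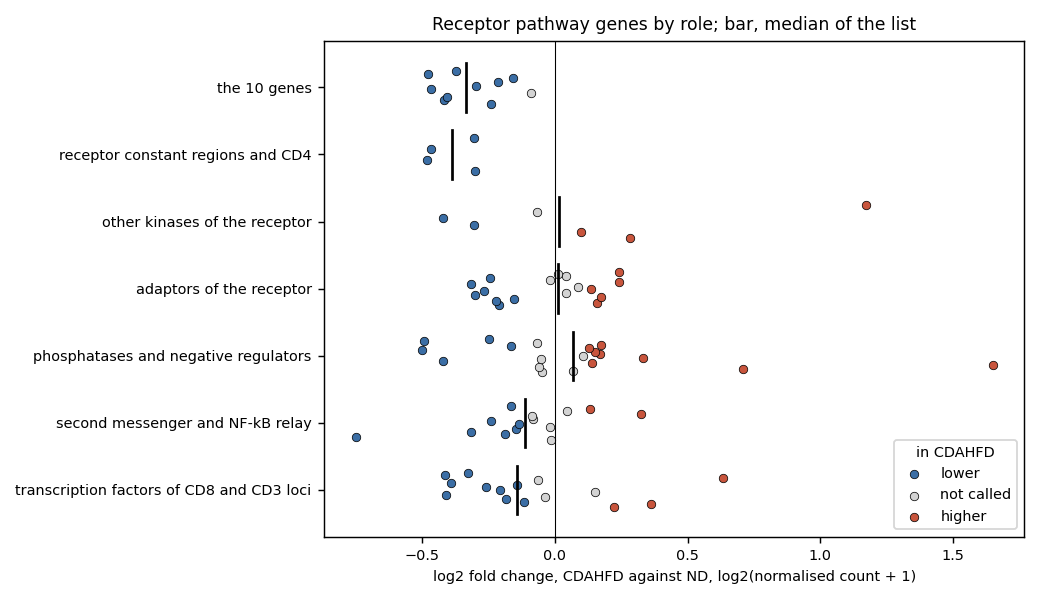
Log2 fold change, CDAHFD against ND, of the 10 genes and of the other pathway genes by role, 1 point per gene; red was called higher, blue lower and grey not called, and the black bar is the median of a list. The 10 genes and the constant regions lie to the left of 0, while the other lists have points on both sides, with Ptprj (1.65) and Syk (1.17) farthest to the right.

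Of 6 other kinases, 3 were higher, 2 were lower and 1 was not called. Syk, the relative of Zap70 that B cells and myeloid cells use in its place, had 3833 ± 126 normalised counts in ND and rose to 8642 ± 256 (log2 fold change 1.17, SE 0.04, limma adjusted p = 9.91e-20). The macrophage markers had a median log2 fold change of 3.00 and the B cell markers one of -0.46, with 7 of 8 lower and 1 higher. Which cells the Syk RNA came from was not tested. Fyn, the other Src-family kinase of the T cell receptor, went against Lck and rose from 8856 ± 189 to 10769 ± 253 (0.28, adjusted p = 4.97e-07). The Tec-family kinases Tec and Txk fell, Tec from 1246 to 931 (-0.42) and Txk from 4199 to 3404 (-0.30). The same sign of each of these 4 held under every scaling tried.

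Adaptors were divided, with 7 of 17 lower, 5 higher and 5 not past the test, and a list median of 0.01. Skap1 fell from 4712 ± 69.3 to 3825 ± 136 and Themis, a T cell protein that tunes receptor signals, from 6919 ± 225 to 5569.5 ± 327 normalised counts (log2 fold changes -0.30 and -0.31). Grap2, which links the adaptors LAT and SLP-76, fell from 19535 ± 649 to 16744 ± 90.6 (-0.22). Grb2, which is found in nearly all cell types, rose from 5047 ± 195 to 5966 ± 124 (0.24, limma adjusted p = 1.42e-05).

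Among 19 phosphatases and negative regulators, 8 were higher, 5 lower and 6 not called, with a median of 0.07. Ptprj, a receptor phosphatase that is also abundant in myeloid cells, had 1480 ± 81.4 normalised counts in ND and rose to 4638 ± 157 (log2 fold change 1.65, SE 0.05, limma adjusted p = 9.31e-22). Ptpn22, which counteracts Lck and Zap70, rose from 6637 ± 224 to 10856 ± 142 (0.71, SE 0.04). Dgka, the kinase that removes diacylglycerol, fell from 29896 ± 155 to 21251 ± 365 (-0.49) and the adaptor-like inhibitor Sla2 from 2029 ± 52.8 to 1435 ± 72.4 (-0.50). Without CDAHFD replicate 2, 5 of the list were called higher.

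In the second messenger and NF-kB relay, 7 of 14 genes were lower, 2 higher and 5 not called, with a median of -0.11. Rasgrp1, which turns diacylglycerol into Ras activation, had the largest fall of the pathway lists, with 11056 ± 391 normalised counts in ND and 6582 ± 29.3 in CDAHFD libraries (log2 fold change -0.75, SE 0.04, limma adjusted p = 1.29e-15). The calcium channel gene Itpr1 fell from 4468 to 3783 (-0.24). Orai1, the pore of the calcium entry channel, rose from 715 ± 41.7 to 894 ± 10.7 (0.32). Without ND replicate 2, CDAHFD replicate 2 or CDAHFD replicate 3, 1 gene was called higher in place of 2.

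Transcription factors known to act at the CD8 and CD3 loci were called lower more often than higher, with 9 of 15 lower, 3 higher and 3 not past the test (median -0.14), beside 22.5% lower and 24.6% higher among all genes. Scaled to the pan T cell surface genes, 6 were lower and 4 higher. Tcf3, which encodes the E-proteins E12 and E47, fell from 4518 ± 147 to 3395 ± 175 normalised counts (log2 fold change -0.41, limma adjusted p = 6.88e-09), and Lef1 fell from 10506 ± 334 to 7902 ± 307 (-0.41). The chromatin organiser Satb1 fell from 16974 ± 628 to 12945 ± 506 (-0.39). Zbtb7b, the factor that directs the CD4 lineage and represses CD8 genes, was low and rose from 531 ± 25.6 to 822 ± 4.25 (0.63, adjusted p = 3.98e-09). The other 2 called higher were Runx3, from 3704 ± 42.1 to 4770 ± 190 (0.36, limma adjusted p = 2.21e-08), and Runx1 (0.22, limma adjusted p = 0.000424). Tcf7 was not called (-0.04).

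Among 5276 other well-expressed protein-coding genes, those whose profile over the 6 libraries came nearest to the median of the 10 genes were Get4, Scd2, Rpa1, Cep152 and Tlr1. Likeness was the root mean square difference of log2 deviations from the ND mean, which was 0.017 for Get4 and 0.019 for Tlr1. Of the 10 genes themselves, Cd247 (0.045) and Cd6 (0.046) lay nearest to that median and Cd3e (0.18) and Zap70 (0.13) farthest. The log2 fold changes of the 5 like genes ran from -0.34 (Tlr1) to -0.31 (Rpa1). Their small distances and like changes follow from choosing the nearest of 5276 genes, and tell nothing further about the 10.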

How the data were processed

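RNA sequencing was compared between 3 ND and 3 CDAHFD libraries. The authors deposited signal values, normalised counts for 26181 genes, on build mm10 per the submitters' processing notes. For the aligner, the read counter, strandedness and gene models, the sources used here name nothing. In each column 100% of values were whole multiples of the smallest one within 0.001, so reads were recovered (edgeR called 7489 genes on them). The columns named CDHFD were matched to the CDAHFD samples. Symbols matched 26147 IDs, and positions and exon lengths came from GENCODE M21.

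The test was limma 3.58.1 in R 4.3.3 (trend and robust estimation, diet as the term) on log2(normalised count + 1), for 15819 genes with a mean of at least 10, with Benjamini-Hochberg adjustment over all of them and a threshold of 0.05. Tested on simulated data for this comparison (15813 genes tested), it recovered 30 of 50 genes changed 1.3-fold, 40 of 49 at 1.5-fold, 47 of 49 at 2-fold and 49 of 49 at 4-fold, with 3 false calls among 169. The simulation changed only these few genes and gave all genes the same spread, whereas 47.1% of genes were called in the data. It tried no change under 1.3-fold, so it does not give the error rate of the real comparison. Differences within a library used exact permutation in scipy 1.17.1. edgeR 4.0.16 and DESeq2 1.42.0 were alternatives.

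The genes and lists were chosen with earlier results of these data known. Named from each pathway list were the 4 called genes with the smallest adjusted p, from each list of other cells the 2 most abundant markers, the 5 most alike genes with a mean of at least 1000, and the nearest protein-coding neighbours. Any other gene was named after its value was seen. A gene that this rule would name is not reported here.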

Additional observations from a re-analysis of the deposited data

How the results depend on the processing

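Under 18 alternatives (other pseudocounts, filters, scalings, tools, a replicate block and each library left out), the number of the 10 genes called lower was 8 to 10 and the number called higher was 0, and Cd8a, Cd8b1, Cd3d, Cd3g, Cd247, Lck, Cd5 and Cd6 were called lower under each. Scaling to the 8 pan T cell surface genes was chosen after seeing the data, and of those 8, 5 were themselves called lower, 1 higher and 2 not called. Under it Cd3e had a log2 fold change of 0.0041 (adjusted p = 0.952) and Zap70 one of -0.07 (adjusted p = 0.232), and of all genes 5013 were called higher and 2058 lower, against 3886 and 3563, so that 70.9% of calls were higher in place of 52.2%. That scaling also gave 9 adaptors higher and 3 relay genes lower. In limma without trend and robust estimation 3 adaptors, 5 negative regulators and 1 relay gene were higher, and with equal totals 1 relay gene. The difference of Cd247 from the CD3 chains ran from -0.014 to 0.081 with a library left out, and with Cd3e left out of the mean it was 0.14 and that of Cd5 -0.04. Bst2, a marker that was not called, changed sign with equal totals (-0.0096) and with a library left out (-0.036 to 0.070). The cause was not tested. A replicate block left the 9 calls in place and gave 7250 genes called against 7449. Same-numbered libraries had deviations correlated at 0.041, -0.051 and 0.062, and differently numbered ones at -0.089 to 0.051. Values this small cannot decide whether the numbers pair libraries, because pairs with little in common would give them too. The 10 genes had at least 3301 reads in every library.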

Other observations

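The protein-coding genes nearest to each locus did not share one direction. Beside the CD8 genes, the muscle gene Smyd1 was low and rose from 63.5 ± 7.63 to 95.2 ± 1.93 normalised counts, while Rmnd5a, on the other side, fell from 6343 ± 84.4 to 5758 ± 174 (log2 fold change -0.14, limma adjusted p = 0.00428, lost in limma without trend and robust estimation, adjusted p = 0.053, and under pan T cell scaling, adjusted p = 0.359). Beside the CD3 genes, Ube4a, a ubiquitin ligase, rose from 4163 ± 74.6 to 4462 ± 72.5 (log2 fold change 0.10, limma adjusted p = 0.0399), and its call was lost under 9 of 18 alternatives. Mpzl2, on the far side of Cd3e, was under the tested minimum.

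Beside Cd5 and Cd6, Vps37c rose from 599 ± 29 to 673 ± 33.9 (log2 fold change 0.17, limma adjusted p = 0.048, lost under 9 of 18 alternatives) and Slc15a3, a lysosomal peptide transporter of myeloid cells, from 253 ± 43.2 to 1453 ± 22.7 (log2 fold change 2.53). Creg1, a lysosomal gene next to Cd247, rose from 1479 ± 49.5 to 7098 ± 351 (log2 fold change 2.26). Hdac1, 5630 bases from Lck, fell from 4392 ± 101 to 3245 ± 120.004 (log2 fold change -0.44, limma adjusted p = 9.24e-10), and Tmem131, next to Zap70, rose from 5639 ± 98.1 to 6164 ± 231 (log2 fold change 0.13, limma adjusted p = 0.00992, lost in limma without trend and robust estimation and without ND replicate 2 or CDAHFD replicate 3, adjusted p = 0.0844, 0.0559 and 0.0775). Beside these values, the 12 macrophage markers had a median log2 fold change of 3.00, and a link between them was not tested.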
